A study of Macaca mulatta with 6 samples.

Results

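CARTPT, PENK and NPY encode the precursors of CART peptide, the enkephalins and neuropeptide Y, and they are 3 of the 14132 genes that the array's annotation names through a probe set with a single gene symbol. Members were taken by symbol alone, which gave 4 probe sets: 1 for CARTPT, 2 for PENK and 1 for NPY. The set was proposed after an earlier analysis of these arrays, so the genes were in effect selected on the signals given below, and which of those signals prompted the choice is not recorded. Their levels and differences are therefore a description, and no test is read from them. The arrays measured RNA of cells that the labels call serotonin neurons, cut by laser from dorsal raphe sections of female rhesus macaques. Each of 6 monkeys gave 1 array. Of these, 2 carried placebo capsules (titles tagged Ovx, read here as ovariectomized), 2 estrogen capsules, and 2 capsules of estrogen and progesterone, in each case under the skin for 1 month. Titles of the hormone groups do not repeat the Ovx tag, and ages were not stated there.

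Neuropeptide precursors are made in the cell body, sorted into dense-core granules and cut by convertases into active peptides, which are released beside the fast transmitter and act on G protein-coupled receptors. Enkephalins act on delta and mu opioid receptors, and NPY acts on the Y receptors; both dampen neuronal firing in many circuits. CART peptide is known for its effects on feeding, reward and stress, and its neurons include those of the centrally projecting Edinger-Westphal nucleus, a midbrain group close to the raphe that also makes urocortin. In the midbrain around the raphe, enkephalin and NPY neurons lie among the serotonin cells, and fibers of both kinds reach them.

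Background differed between arrays. The floor of an array, the 95th percentile over 59 controls that have no target in the sample, was at a signal of 29.99 to 74.9 on estrogen 1, estrogen 2 and estrogen+progesterone 1. It was at 216 to 283 on placebo 1, placebo 2 and estrogen+progesterone 2, where 28.7% to 37.3% of probe sets rose above it, against 49.6% to 62.2% on the first 3. Estrogen+progesterone 2 stood apart: across the 26383 probe sets tested it correlated at r of -0.050 to 0.00048 with estrogen 1, estrogen 2 and estrogen+progesterone 1, which correlated with each other at 0.842 to 0.913. Differences of the member genes are given with and without it. Of the genes that define serotonin neurons, FEV was above the floor on 6 arrays and TPH2 on 2, the estrogen pair. Neither stood far above it: FEV was at 1.07-fold to 2.67-fold, and TPH2 at 1.80-fold and 1.22-fold on that pair. On estrogen+progesterone 2, at 1.07-fold, FEV lay at the level of background.

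CARTPT was bright in 1 animal and dim in the other with placebo and with estrogen. Its signal was 306 on placebo 1 and 4207 on placebo 2, 7843 on estrogen 1 and 311 on estrogen 2. In the animals given both hormones it was 1443 and 292. That pair is not read as a bright and a dim animal, because its lower value came from estrogen+progesterone 2. The placebo and estrogen animals overlapped completely, each group holding a high and a low one. All 6 values were above their array's floor, by 262-fold on estrogen 1, 19.3-fold on estrogen+progesterone 1, 19.1-fold on placebo 2, 6.03-fold on estrogen 2, 1.42-fold on placebo 1 and 1.03-fold on estrogen+progesterone 2, so the last lay at the level of background. After quantile normalization on the log2(signal + 16) scale, the mean level was 10.18 ± 2.81 in placebo animals, 10.28 ± 2.69 in estrogen animals and 8.94 ± 1.48 after the combined treatment (SD, n = 2 monkeys each).

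PENK, the source of Met- and Leu-enkephalin, was measured by a bright probe set and a dim one. The brighter gave 391 and 1109.95 in the placebo animals, 3585 and 2045 in those given estrogen, and 2836 and 7.07 after the combined treatment. It was high on estrogen 1, estrogen 2 and estrogen+progesterone 1, at 37.8-fold to 119.5-fold over the floor, lower on the placebo arrays at 1.81-fold and 5.03-fold, and below the floor on estrogen+progesterone 2. On the normalized log2 scale the groups averaged 9.68 ± 1.29 in placebo animals, 10.72 ± 0.36 in estrogen animals and 7.52 ± 4.56 after the combined treatment (SD, n = 2 monkeys each). The estrogen and placebo values still overlapped on this scale, where placebo 2 at 10.60 passed estrogen 2 at 10.46.

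The dimmer PENK probe set ran differently among the animals. Its signals were 222 and 104 in the placebo animals, 131 and 345 in those given estrogen, and 169.95 and 19.6 after the combined treatment. It was highest on estrogen 2, where the brighter one was below its level on estrogen 1, and it was under the floor on placebo 2 and estrogen+progesterone 2. Across 6 arrays the normalized values of the PENK probe sets correlated at r = 0.83, and at 0.073 without estrogen+progesterone 2, so their likeness rested on that array. These r values are a description over few arrays that share their scaling.

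NPY had the same order of normalized levels over the 6 animals as CARTPT. Its signals were 237 and 496 in the placebo animals, 991 and 233 in those given estrogen, and 348 and 35.1 after the combined treatment. Estrogen 1 was highest and placebo 2 next, while estrogen+progesterone 2 was below its floor. The other 5 values stood above theirs, by 33.04-fold on estrogen 1 and by 1.096-fold to 4.64-fold elsewhere. On the normalized log2 scale the groups averaged 8.44 ± 1.21 in placebo animals, 8.80 ± 0.99 in estrogen animals and 6.85 ± 2.42 after the combined treatment (SD, n = 2 monkeys each).

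**Figure D1:**
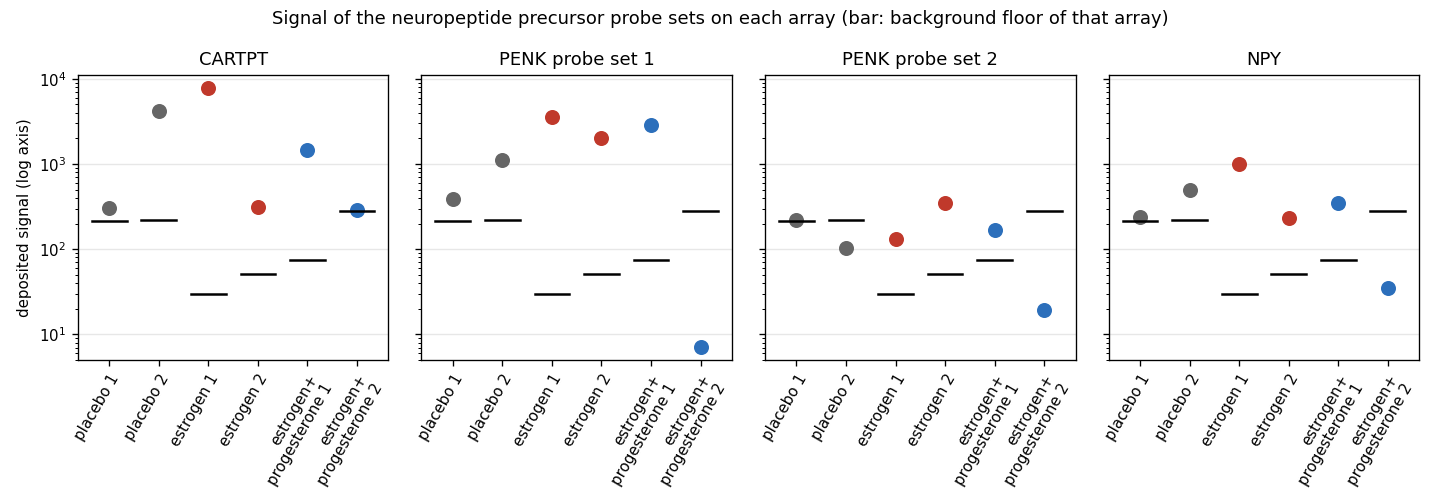
Deposited signal (log axis) of the CARTPT, PENK and NPY probe sets on each of the 6 arrays, in grey for placebo, red for estrogen and blue for estrogen+progesterone; the black bar is the background floor of that array, and heights are not comparable between panels. CARTPT ran from 292 to 7843, with a high and a low animal in the placebo pair and in the estrogen pair. On estrogen+progesterone 2, CARTPT was at the level of background and 3 of the 4 probe sets were below the floor.

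The comparison of estrogen with placebo asks whether estrogen alone changed the level of these precursors. No difference was larger than about 1 standard error. The log2 difference, estrogen minus placebo, was 0.10 ± 1.55 for CARTPT, 1.04 ± 1.71 for the brighter and 1.19 ± 1.10 for the dimmer PENK probe set, and 0.36 ± 1.22 for NPY (moderated SE from limma, n = 2 monkeys per group). Of the 4 probe sets, only the dimmer of PENK had groups that did not overlap on the normalized log2 scale, with both estrogen animals higher. Of all tested probe sets 29.0% did so in that direction and 53.9% in either. The deposited signals of the dimmer PENK probe set did overlap, at 222 on placebo 1 and 131 on estrogen 1. Its value on placebo 2 was below the floor. Limma called 0 of the 26383 probe sets (0%) at an adjusted p under 0.05 in this comparison, and 2065 had an unadjusted p under 0.05. The sign for CARTPT turned with the animal left out, from -1.93 without placebo 1 and -1.73 without estrogen 1 to 2.12 without placebo 2 and 1.93 without estrogen 2. For NPY it was -0.54 without placebo 1 and -0.31 without estrogen 1. Scaling moved all probe sets together: the median difference over those tested was 0.17 after quantile normalization, -0.14 without it, 1.11 after median-centering and 2.26 after scaling to hybridization controls. Relative to that median, CARTPT stood at -0.065 after quantile normalization and at 0.60 without it, so its direction flips; the last 2 scalings shift every probe set of an array alike and give the same relative value as no normalization. NPY stood at 0.19 and 0.61, the brighter PENK probe set at 0.87 and 2.15, and the dimmer at 1.02 and 0.58. Both placebo arrays had high floors and both estrogen arrays low ones, so the treatment and the background of the arrays cannot be told apart in this comparison.

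The comparison of both hormones with placebo, and with estrogen alone, asks what the combined treatment and the added progesterone did. All 4 probe sets had lower means with both hormones, by 0.62 to 2.16 on the log2 scale below placebo and by 1.35 to 3.20 below estrogen. The differences from estrogen were -1.35 ± 1.55 for CARTPT, -3.20 ± 1.71 and -1.81 ± 1.10 for PENK, and -1.94 ± 1.22 for NPY; those from placebo were -1.24 ± 1.55, -2.16 ± 1.71, -0.62 ± 1.10 and -1.58 ± 1.22 in the same order (moderated SE from limma, n = 2 monkeys per group). These comparisons share animals with the first and with each other. The differences of PENK and NPY rested on 1 animal, in which the NPY probe set and both PENK probe sets were below background. Those of CARTPT shrank without that animal but kept their sign, and they turned with another animal left out, as given below. Without estrogen+progesterone 2, the differences from estrogen were -0.31 for CARTPT, 0.028 and -0.27 for PENK, and -0.26 for NPY, and those from placebo -0.20, 1.18, 0.97 and 0.14. Estrogen+progesterone 1 lay between the 2 estrogen animals in all 4 probe sets on the normalized log2 scale, at 9.99 against 8.38 and 12.18 for CARTPT, 10.74 against 10.46 and 10.97 for the brighter PENK probe set, 7.85 against 7.72 and 8.48 for the dimmer, and 8.57 against 8.10 and 9.50 for NPY.

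In neither comparison with the combined treatment did the groups of a member probe set fail to overlap, where 24.7% of all tested probe sets did so against placebo and 34.2% against estrogen. Limma called 0 probe sets (0%) in each, with 870 and 464 at an unadjusted p under 0.05. Levels from captured tissue cannot separate fewer cells of a type from less RNA per cell. For CARTPT the sign against placebo became 0.78 without placebo 2, and against estrogen 0.51 without estrogen 1.

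**Figure D2:**
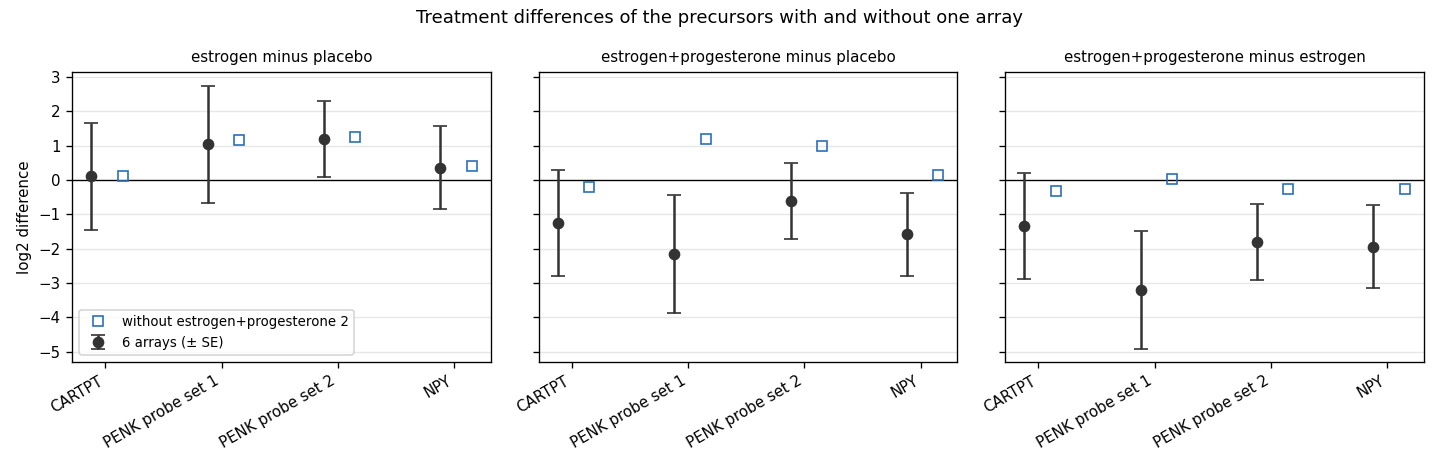
Log2 difference in level for each member probe set in the 3 pairwise comparisons, from all 6 arrays (black points, bars ± moderated SE) and without estrogen+progesterone 2 (open blue squares). Without that array the difference from estrogen alone moved from -3.20 to 0.028 for the brighter PENK probe set and from -1.94 to -0.26 for NPY.

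The gap between animals of a treatment was larger for CARTPT than any of its treatment differences. Between the estrogen animals the signal differed 25.2-fold, which is 3.81 on the normalized log2 scale, where the median gap of all tested probe sets was 0.39. Only 7 of 26383 probe sets, CARTPT included, had a gap as large there (0.0265%). The placebo animals differed 13.7-fold in signal, or 3.97 on the normalized log2 scale, against a median of 0.92, and 0.898% of probe sets had a gap as large. CARTPT was the 1 tested probe set that reached these values in both pairs with placebo 2 and estrogen 1 as the higher animals, a count made after its values were seen. The cut-offs and the direction were CARTPT's own, so its place in the count was fixed in advance. This count and the shares above are a description, and no test is read from them. Without quantile normalization the gaps were 3.71 for placebo and 4.58 for estrogen, and after scaling to the 27 hybridization controls they were 3.42 and 4.90.

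NPY and PENK differed less between animals of those treatments. The NPY gap was 1.71 on the log2 scale for placebo, as large as or larger in 23.3% of tested probe sets, and 1.40 for estrogen, where 6.08% had a gap as large. Those of the brighter PENK probe set were 1.83 and 0.51, reached by 20.6% and 39.8%. The dimmer PENK probe set was higher in placebo 1 and estrogen 2, with placebo 2 below the floor and a gap of 0.76 between the estrogen animals. Between the animals given both hormones no gap is given for PENK or NPY, which were above the floor on estrogen+progesterone 1 and below it on estrogen+progesterone 2. CARTPT differed there by 2.10, where the median gap was 1.55 and 9234 of the 26383 tested probe sets had a gap as large. Its lower value in that pair lay at the level of background, so this gap does not mark CARTPT out.

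**Figure D3:**
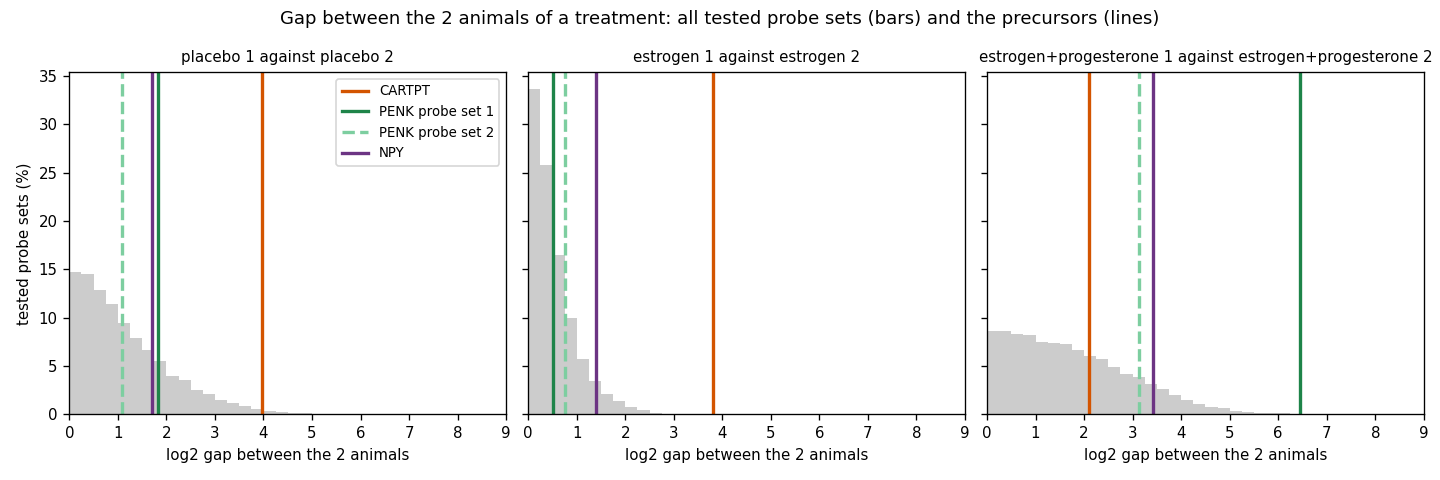
Share of the 26383 tested probe sets (grey bars, percent) by the absolute normalized log2 gap between the 2 animals of each treatment, with the member probe sets as coloured lines. CARTPT lay far out in the placebo pair at 3.97 and the estrogen pair at 3.81; in the estrogen+progesterone pair the PENK and NPY lines rest on a value below the floor and show no measured gap.

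Genes of neighboring cell groups differed between the same animals. SLC6A3, the dopamine transporter, had signals of 602 and 538 in the placebo animals, 7760 and 603 in those given estrogen, and 1993 and 155 after the combined treatment. Among estrogen 1, estrogen 2 and estrogen+progesterone 1 it thus took the same order as CARTPT, but on placebo 2, where CARTPT was high, it was 2.44-fold over the floor against 2.79-fold on placebo 1. TH, the enzyme that makes the dopamine precursor, gave 138 and 63.96 in the placebo animals, 1074 and 149 in those given estrogen, and 708 and 31.4 after the combined treatment. Of 8 marker genes of dopamine and noradrenaline neurons 5 were named on the array, and their summed signal ran from 838 to 1408 with placebo, 856 to 8964 with estrogen and 737 to 2814 with both hormones. Above the floor were 3 of the 5 on placebo 1, estrogen 1 and estrogen 2, 2 on estrogen+progesterone 1, and 1 each on placebo 2 and estrogen+progesterone 2. UCN, the urocortin precursor, had signals of 191 and 23.2 in the placebo animals, 758 and 162 in those given estrogen, and 210 and 384 after the combined treatment, and was below the floor on both placebo arrays. The high sum on estrogen 1 was mostly SLC6A3. Other genes of the list did not take this order: DBH, which makes noradrenaline, was at 28.2 on estrogen 1, 53.7 on estrogen 2 and 309 on estrogen+progesterone 2, and SLC6A2, the noradrenaline transporter, was below the floor on 6 arrays. None of these markers was listed at 0. Their part in the CARTPT values was not tested, and on placebo 2 a high CARTPT signal came with TH and UCN below the floor.

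Estrogen 2, where CARTPT and NPY were low, was marked by other genes. Among the 7 probe sets with an estrogen gap as large as that of CARTPT, 2 more had a gene name, PCP2, a gene of cerebellar Purkinje cells, and CBLN3, of cerebellar granule cells, and both ran the opposite way. PCP2 had signals of 121 and 288 in the placebo animals, 5.36 and 1456 in those given estrogen, and 66.5 and 15.1 after the combined treatment; CBLN3 gave 54.6 and 279.8, 20.4 and 2758, and 12.3 and 50.6. Of 15 genes enriched in cerebellar neurons, a list drawn up after these values were seen, 9 were named on the array. All 9 were above the floor on estrogen 2, against 6 on estrogen 1 and 5 on estrogen+progesterone 1. Their summed signal was 11346 on estrogen 2 and 1182 to 2544 on the other 5 arrays. PCP2 and CBLN3 are among the 9, so the count and the sum partly repeat the values above. RORA, another of the 9, was lower on estrogen 2, at 141, than on estrogen 1, at 285. ZIC2 and ITPR1 were also 38.2-fold and 22.4-fold over the floor on estrogen 1. Their part in the low CARTPT and NPY values of estrogen 2 was not tested.

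**Figure D4:**
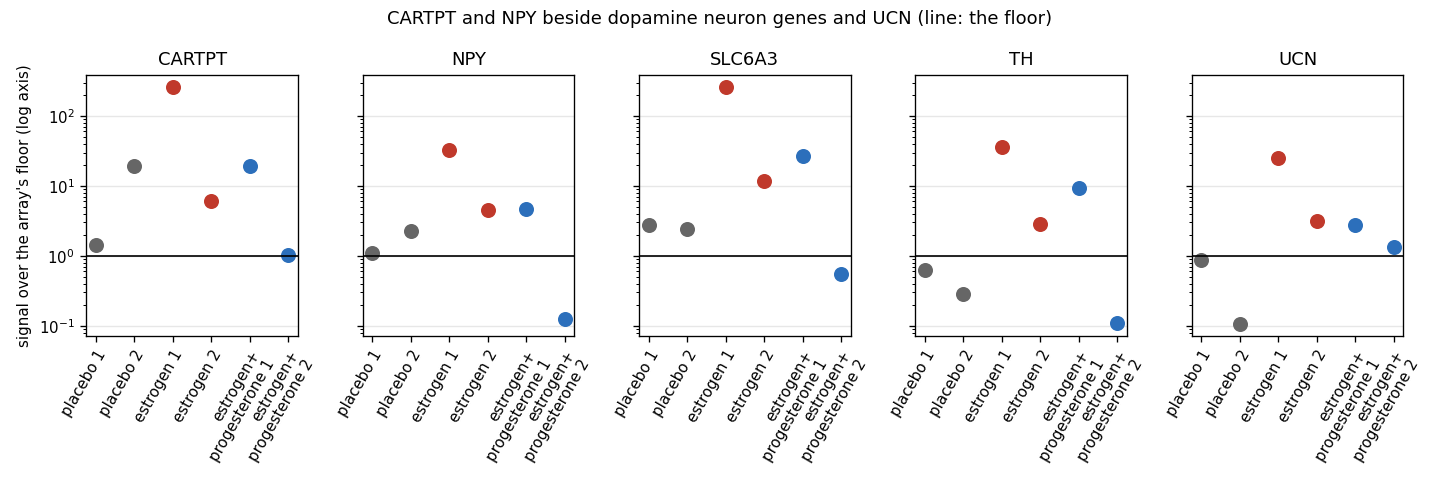
Signal over the array's own floor (log axis; the line at 1 is the floor) of CARTPT, NPY, the dopamine neuron genes SLC6A3 and TH, and UCN on the 6 arrays, coloured by treatment. All 5 were highest on estrogen 1, while placebo 2, at 19.1-fold for CARTPT, was at 0.29-fold for TH and 0.11-fold for UCN.

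The brighter PENK probe set took its low value on the same array as the general neuron, astrocyte and oligodendrocyte markers. Summed over 7 general neuron markers named on the array, the signal was 10773 and 15567 in the placebo animals, 31361 and 31866 in those given estrogen, and 30898 and 2905 after the combined treatment. Summed over 10 astrocyte markers it was 25874 and 24624, then 69593 and 78635, then 75525 and 4289. Over 3 oligodendrocyte markers it was 32988 and 47341, then 39709 and 54774, then 53696 and 2510. Each of these sums was lowest on estrogen+progesterone 2, as PENK was. The sums of the GABA, dopamine and noradrenaline, and microglia markers were also lowest there, at 1001, 737 and 1956. Other lists were not lowest there: the summed signal of 8 serotonin neuron markers was highest, at 2375 against 1063 to 2158. That sum includes background: only 4 of the 8 were above the high floor of estrogen+progesterone 2. On estrogen 2, where the sum was lowest, 7 of the 8 were above the floor. The sums of the glutamate, cholinergic and endothelial markers were 1028, 1271 and 1062 on estrogen+progesterone 2, each above the lowest array. Their part in the PENK differences was not tested. No marker was listed at 0.

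Among 9127 tested and named genes, each by its brightest probe set, the patterns most like each precursor were taken by Pearson's r of normalized log2 values over the 6 arrays, which share their scaling. For the brighter PENK probe set 1520 genes (16.7%) had r over 0.9; the closest were RBBP7, TSC1, CNP, SCD5 and NEK1, each at 0.999, and at 0.984 to 0.993 without estrogen+progesterone 2. CNP is a myelin enzyme. For NPY the number was 924 (10.1%), led by SPMIP7 at 0.996, ASAH1 at 0.993, and TICAM1, B3GNTL1 and NR2F1 at 0.992, which stood at 0.960 to 0.983 without that array. TICAM1 and B3GNTL1 were below the floor on placebo 1 and estrogen+progesterone 2. CARTPT had 32 genes with r over 0.9 (0.351%). Without estrogen+progesterone 2 the numbers were 1247 (13.7%) for PENK, 145 (1.59%) for NPY and 119 (1.30%) for CARTPT, so that array set most of the gap between NPY and CARTPT. Closest to CARTPT over 6 arrays were KALRN at 0.988, SH3BGRL at 0.968, GALNT13 at 0.966, OTULINL at 0.963 and ZNF777 at 0.961. GALNT13, OTULINL and ZNF777 lay near background on placebo 1, placebo 2 and estrogen+progesterone 2, at 0.66 to 1.53 times the floor. The deposited signal of OTULINL was lower on estrogen 1, at 117, than on placebo 1, at 198, unlike that of CARTPT. KALRN had signals of 515 and 698 in the placebo animals, 1686 and 799 in those given estrogen, and 1018 and 472 after the combined treatment, a far narrower range than CARTPT. Between the members, r was 0.81 for CARTPT and NPY, 0.96 for NPY and the brighter PENK probe set, and 0.63 for the latter and CARTPT. Without estrogen+progesterone 2 these became 0.98, 0.80 and 0.67.

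Receptors for these peptides were mostly near background, apart chiefly from OPRM1 and OPRL1 on the estrogen arrays. Of 10 receptor genes listed, 8 were named on the array and 3 entered the test, the others having means below the filter. OPRD1, the delta opioid receptor, was below the floor on all 6 arrays, with signals of 73.4 and 64.5 in the placebo animals, 6.80 and 13.2 in those given estrogen, and 22.2 and 94.5 after the combined treatment. OPRM1, the mu receptor, was above it on 4, at 482 on placebo 1, 305 and 188 with estrogen and 395 on estrogen+progesterone 1; its other 2 probe sets had lower means, and 1 of them was just above the floor on estrogen+progesterone 2, at 291, so that 5 arrays had a probe set above it. OPRL1, the nociceptin receptor, was above the floor on 5 arrays by its brightest probe set and on 6 by any of its 3, and OPRK1, the kappa receptor, on 1. By its brightest probe set OPRM1 was at 10.2-fold on estrogen 1, 3.65-fold on estrogen 2 and 5.28-fold on estrogen+progesterone 1. On the same arrays OPRL1 was at 8.72-fold, 4.24-fold and 1.56-fold over the floor. NPY5R was above it on 4, NPY4R on 3 and NPY2R on 1. GPR160, proposed as a receptor of CART peptide, was above the floor on estrogen+progesterone 2 alone, at 406. The log2 differences of estrogen minus placebo were -0.17 ± 0.94 for OPRM1, 0.11 ± 0.86 for OPRL1 and -0.89 ± 0.90 for NPY5R, and of both hormones minus estrogen 0.0018 ± 0.94, -1.39 ± 0.86 and 1.69 ± 0.90 (moderated SE from limma, n = 2 monkeys per group). Without estrogen+progesterone 2 the last 3 were 0.60, -0.78 and 1.03, and the other tested probe sets of OPRL1 stood at 1.28 and 0.044 with it, so its probe sets disagree. These differences rest in part on values below the floor. Such values were those of OPRM1 on placebo 2 and estrogen+progesterone 2, and of NPY5R on placebo 2 and estrogen 2. OPRL1, by its brightest probe set, was below the floor on estrogen+progesterone 2. Limma called none of the 3 in any comparison, and 0 had an unadjusted p under 0.05.

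Genes that process and store precursors were above the floor on more arrays. Of 19 listed, 12 were named on the array, and all 12 were tested and above the floor on estrogen 1, estrogen 2 and estrogen+progesterone 1, but only 2 on all of the other 3 arrays. PCSK2, the prohormone convertase that releases enkephalins, had signals of 197 and 386 in the placebo animals, 1023 and 326 in those given estrogen, and 611 and 276 after the combined treatment. Its second probe set, at 187 on estrogen 1 and 462 on placebo 1, did not repeat that order. Members above 0 numbered 8 of 12 for estrogen minus placebo, with a median of 0.69 beside 0.17 over all tested probe sets, 3 of 12 for both hormones minus placebo (-0.41 beside -0.032) and 3 of 12 for both hormones minus estrogen (-0.82 beside -0.22). Without estrogen+progesterone 2 the last 2 medians were 0.85 and -0.059. Relative to the median of all tested probe sets, both hormones minus placebo stood at -0.38 after quantile normalization and at 0.079 without it, so this direction flips, while the other 2 kept theirs at 0.53 to 0.68 and at -0.63 to -0.60. CADPS2, a priming factor of granule release, stood at 2.66 ± 1.09 for estrogen minus placebo, with placebo 1 below the floor. It stood at -2.88 ± 1.09 when both hormones were set against estrogen, or -1.63 without estrogen+progesterone 2, where it was also below the floor. VGF, a granule protein, differed by -2.31 ± 1.13 after the combined treatment relative to placebo, and by -0.82 without estrogen+progesterone 2, where it was below the floor. FURIN, another convertase, and PTPRN, a granule membrane protein, stood at -1.47 ± 0.84 and -1.45 ± 0.90 for estrogen minus placebo (moderated SE from limma, n = 2 monkeys per group). Relative to the floor, however, both stood higher with estrogen. FURIN was at 3.43-fold and 2.30-fold with placebo, and at 6.93-fold and 5.84-fold with estrogen. PTPRN was at 5.25-fold and 4.41-fold, then at 19.8-fold and 13.6-fold. Limma called none of the 12 in any comparison, in either direction, and at an unadjusted p under 0.05 CADPS2 alone passed in 2 comparisons, those of estrogen with placebo and with the combined treatment.

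Of 35 other peptide precursors listed, 21 were named on the array and 12 tested. Limma called 0 of the 12 in either direction in any comparison, and UCN alone had an unadjusted p under 0.05, in both comparisons with placebo. Estrogen minus placebo was above 0 for 4 of 12, with a median of -0.18, both hormones minus placebo for 5 (median -0.52) and both hormones minus estrogen for 6 (median -0.017). Relative to the median of all tested probe sets these stood at -0.34, -0.49 and 0.21, and without quantile normalization at -0.71, -0.40 and 0.42. Without estrogen+progesterone 2 the last 2 medians were -0.17 and 0.27. UCN reached the floor in neither placebo animal and passed it on the other 4 arrays, and no difference is given against placebo. GHRH, CALCA and NPW, the precursors of growth hormone-releasing hormone, calcitonin gene-related peptide and neuropeptide W, stood at -1.87 ± 0.85, -1.87 ± 1.02 and -1.45 ± 0.92 for estrogen minus placebo (moderated SE from limma, n = 2 monkeys per group), with CALCA on estrogen 2 and NPW on estrogen 1 below the floor. GHRH was near the floor throughout, at 1.87-fold and 1.66-fold with placebo and 1.13-fold and 1.82-fold with estrogen. AGRP, the partner of NPY in hypothalamic feeding neurons, did not reach the floor on any of the 6 arrays, and POMC, precursor of the opioid beta-endorphin, was above it on the estrogen pair only, at 53.7 and 160.4; these last 2 were named after their values were seen.

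Peptide-degrading enzymes and transcription factors of the cAMP response, which act on many peptide gene promoters, also had no member called by limma; at an unadjusted p under 0.05 there were 0 enzymes in each comparison, and 2 transcription factors for estrogen minus placebo and 1 for both hormones minus placebo. Of 13 enzymes 7 were tested, with medians of 0.33 for estrogen minus placebo, 0.24 for both hormones minus placebo and -0.20 against estrogen. Without quantile normalization these were 0.071, -0.068 and 0.14. Relative to the median of all tested probe sets, the enzymes stood at 0.16, 0.27 and 0.021, and without quantile normalization at 0.21, 0.10 and 0.087. Among them ANPEP differed by -1.81 ± 1.04 between the combined treatment and placebo, and by -0.36 without estrogen+progesterone 2, where it was below the floor. THOP1 stood at 1.42 ± 1.07 for estrogen minus placebo, with placebo 2 below the floor. PREP and ECE1 reached the floor in neither placebo animal and passed it in each animal given estrogen. Of 22 transcription factors 13 were tested, with medians of 0.15, -0.025 and 0.022 in the same order, beside 0.17, -0.032 and -0.22 over all tested probe sets. CREB1, the cAMP response factor that acts on the PENK and CARTPT promoters, had signals of 95.7 and 122 in the placebo animals, 473 and 173 in those given estrogen, and 263 and 232 after the combined treatment. It was above the floor on estrogen 1, estrogen 2 and estrogen+progesterone 1 alone. ATF2 had signals of 73.6 and 21.5, then 359 and 354, then 280.02 and 459, and was below the floor on the placebo arrays alone. No difference from placebo is given for either. ATF1 stood at -1.70 ± 1.003 and ATF5 at -1.78 ± 1.07 for estrogen minus placebo (moderated SE from limma, n = 2 monkeys per group). Relative to the floor neither was lower with estrogen. ATF1 was at 3.51-fold and 2.12-fold with placebo, and at 8.56-fold and 2.59-fold with estrogen. ATF5 was at 2.86-fold and 2.33-fold, then at 4.59-fold and 3.16-fold.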

How the data were processed

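The authors deposited linear intensities, 1 for every probe set on every array. With 2% trimmed at both ends, array means came to about 200, which shows scaling to a common target; which program summarized the probes is not given here. Per the labels' protocols, a Qiagen microkit gave the RNA, which was labelled with biotin. Of 52766 probe sets that are not controls, 24956 had 1 symbol, of which 24616 were brought up to date through the gene number in RefSeq.

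Values were taken to log2 after adding 16, quantile normalized, and kept if their mean was at or above the 50th percentile (26383 probe sets; all 4 member probe sets passed). Differences on this scale understate changes of low signals. A mean per group was fitted over 6 arrays with limma 3.58.1 in R 4.3.3 (empirical Bayes, 3 residual degrees of freedom, two-sided, Benjamini-Hochberg over all tested, threshold 0.05); the fit was tested on simulated data. Only 2 animals per group limit precision, and p values measure the spread between these monkeys.

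Members and lists were chosen with earlier results of these data known. Each list gene is given by its brightest tested probe set. By the naming rule, all member probe sets, the 8 receptors and PCSK2 could be named, with up to 4 genes of each other list by smallest unadjusted p and the 5 genes most like each member; SLC6A3, TH, PCP2, CBLN3 and the marker sums were chosen after their values were seen. Alternatives were the offset, normalization, filter, each array left out, the replicate number as a block, prior, array weights, 2 groups alone, the signal class and the floor. Same-numbered animals of different groups did not deviate together (r of -0.063 to 0.082), so the number was not used.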

Additional observations from a re-analysis of the deposited data

How the results depend on the processing

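With 2 animals a group, no setting makes these differences firm; the member signals on estrogen+progesterone 2 were at most 1.03-fold over background. Offsets of 1 or 64, no quantile normalization, median-centering, the filters, array weights, fits of 2 groups alone and a trended prior moved none of the 12 member differences by more than the spread between animals and turned no sign. That spread was wide, with an SD of 4.56 for the brighter PENK probe set after the combined treatment. Median-centering took estrogen minus placebo from 1.04 to 3.25 for that probe set and from 0.10 to 1.70 for CARTPT, beside 1.11 over all tested probe sets. The replicate block left every member difference as it was and called 0 probe sets in each comparison. Array weights called 434 probe sets for estrogen minus placebo; without estrogen+progesterone 1, 3599 were called for both hormones minus estrogen, and with any other array left out 0. The cause was not tested.

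Scaling to hybridization controls moved estrogen minus placebo to 2.85 for CARTPT, 4.40 and 2.84 for the PENK probe sets and 2.87 for NPY, and both hormones minus estrogen to -3.25 for the dimmer PENK probe set and -3.62 for NPY. With the signal class as a covariate, PENK stood at -5.41 and -1.94 and NPY at -3.06 for estrogen minus placebo, at -5.39, -2.18 and -3.29 for both hormones minus placebo, and at 0.024, -0.25 and -0.23 for both hormones minus estrogen. Among high-signal arrays only, a setting chosen after seeing the data, the PENK probe sets stood at 0.040 and -0.37 in the last. The class difference comes from the pair given both hormones, so the covariate acts there as leaving out estrogen+progesterone 2. Leaving out 1 array at a time, estrogen minus placebo ran from -1.93 to 2.12 for CARTPT, 0.12 to 2.02 and 0.70 to 1.81 for PENK, and -0.54 to 1.31 for NPY. Both hormones minus placebo ran from -3.29 to 0.78, -5.29 to 1.18, -2.21 to 0.97 and -3.24 to 0.14 in the same order, and both hormones minus estrogen from -3.14 to 0.51, -6.25 to 0.028, -3.36 to -0.27 and -3.58 to -0.26. A floor at the 90th percentile left 6, 5, 4 and 5 arrays above it for CARTPT, PENK and NPY, as at the 95th. Of 275 list medians under alternatives, 58 moved by more than the spread between animals.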
